A study of Mus musculus with 7 samples.

Results

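Hmgcs1, Pmvk, Idi1, Fdps, Sqle, Insig1 and Srebf2 are 7 mouse genes of cholesterol synthesis and its control, taken by symbol from the 18193 genes that the arrays measured with probe sets of a single symbol. They were read by 14 of the 45101 probe sets. None of the 7 encodes a lipoprotein receptor, so the uptake side of the pathway is described below from a separate gene list. The study used Affymetrix arrays to profile macrophages sorted by GFP and F4/80, with 4 preparations from Gl261 tumours and 3 from normal brain, all of strain C57/Bl6. Gl261 is a mouse glioma cell line. It had been injected into the brains of mice transplanted with GFP bone marrow and had grown for 21 days. For normal brain, 8-week-old mice were used, and whether they too carried GFP marrow is not stated. Tumour-bearing and normal brains were digested with papain before sorting. The labels do not state whether the arrays of a group came from separate mice or cultures, so p-values measure the spread between these arrays, which may be technical.

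Animal cells make cholesterol from acetyl-CoA through mevalonate. Hmgcs1 makes the HMG-CoA that is reduced to mevalonate, Pmvk adds the next phosphate to phosphomevalonate, Idi1 interconverts the isoprene units, Fdps joins them to farnesyl diphosphate, and Sqle oxidises squalene on the way to the sterol ring. Srebf2 encodes SREBP-2, a membrane-bound transcription factor that is cut and released when sterols are low and then raises transcription of this pathway. Insig1 retains the SREBP complex in the endoplasmic reticulum when sterols are plentiful, and it is itself a target of SREBP. In the brain, sterol synthesis is best known from astrocytes and from oligodendrocytes that build myelin, and macrophages both make sterols and take them up from lipoproteins and engulfed cells.

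SREBP-2 acts through the sterol regulatory element, often beside a CCAAT box bound by NF-Y. Upstream windows are therefore shown for the regulators, for the matched enzyme gene with the full element and for the gene that differed most. RefSeq start-site windows on GRCm38.p6 were matched for 5 of the 7 genes (6 windows). Fdps and Sqle had no window and were not searched. The 250 bases before each start were searched on both strands for TCACNCCAC, for CCAAT and for the E-box CACGTG. Capitals mark a match to any of these, including a match to TCACNCCAC with 1 different letter, and each line runs 5′ to 3′ from 180 to 61 bases before the start.
Hmgcs1 (chr13:119690171-119690290, plus strand): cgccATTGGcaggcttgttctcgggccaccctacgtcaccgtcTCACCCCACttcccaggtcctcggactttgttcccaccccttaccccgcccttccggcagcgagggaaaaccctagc
Srebf2 (chr15:82147089-82147208, plus strand): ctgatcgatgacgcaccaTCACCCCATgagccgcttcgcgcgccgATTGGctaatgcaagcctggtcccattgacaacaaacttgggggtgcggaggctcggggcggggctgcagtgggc
Insig1 (chr5:28071232-28071351, plus strand): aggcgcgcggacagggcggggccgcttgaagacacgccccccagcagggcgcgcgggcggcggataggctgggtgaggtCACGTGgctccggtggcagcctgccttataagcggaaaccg
Pmvk (chr3:89454361-89454480, plus strand): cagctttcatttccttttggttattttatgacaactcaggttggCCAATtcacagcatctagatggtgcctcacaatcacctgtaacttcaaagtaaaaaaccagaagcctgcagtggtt

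The Hmgcs1 window held the full TCACNCCAC element, as did 1.05% of the 32851 promoter windows in the table. Srebf2 held it with 1 different letter in the window shown, and Insig1 within 10 bases of its start. Such a match or better was present in 20.7% of all windows. The CCAAT box, present in 33.8% of all windows, was found upstream of Hmgcs1, Srebf2, Insig1, Idi1 and the Pmvk start shown. The E-box, present in 6.02%, was found upstream of Insig1. Neither Idi1 nor the Pmvk start shown had a TCACNCCAC match, even with 1 different letter. The other Pmvk window lies downstream of the one shown and overlaps transcribed sequence of the gene. None of the searched letters was found there, and which Pmvk start these cells used was not measured. The matches describe the sequence and do not show binding.

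Pmvk was the gene of the 7 that was called, and it was higher in the Gl261 preparations. It was read by 1 probe set, 1427893_a_at, so its change could not be compared with a second reading. The arrays give a MAS5 signal, a linear intensity that the authors scaled to the same trimmed mean of about 500 on every array. For Pmvk it was 3412, 2467, 2955 and 3091 in Gl261 replicates 1 to 4, against 897, 1259 and 1047 in normal brain replicates 1 to 3. Every Gl261 array lay above every normal brain array, and the lowest Gl261 value was nearly double the highest normal brain value. On the log2(signal + 6) scale, which shrinks changes of dim genes, Pmvk averaged 11.53 ± 0.20 in Gl261 (SD, n = 4) and 10.05 ± 0.24 in normal brain (SD, n = 3). It rose 2.79-fold, a log2 fold change of 1.48 (SE 0.18, 95% interval 1.09 to 1.87, limma adjusted p = 0.000692). A gene was called at an adjusted p under 0.05, two-sided, over the 12125 genes above a filter on low values. The 1 call among 7 genes stands against 10.1% of all tested genes called, 5.92% higher and 4.20% lower. In such bulk preparations, a change in the cells sorted and a change in RNA per cell cannot be told apart.

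**Figure D1:**
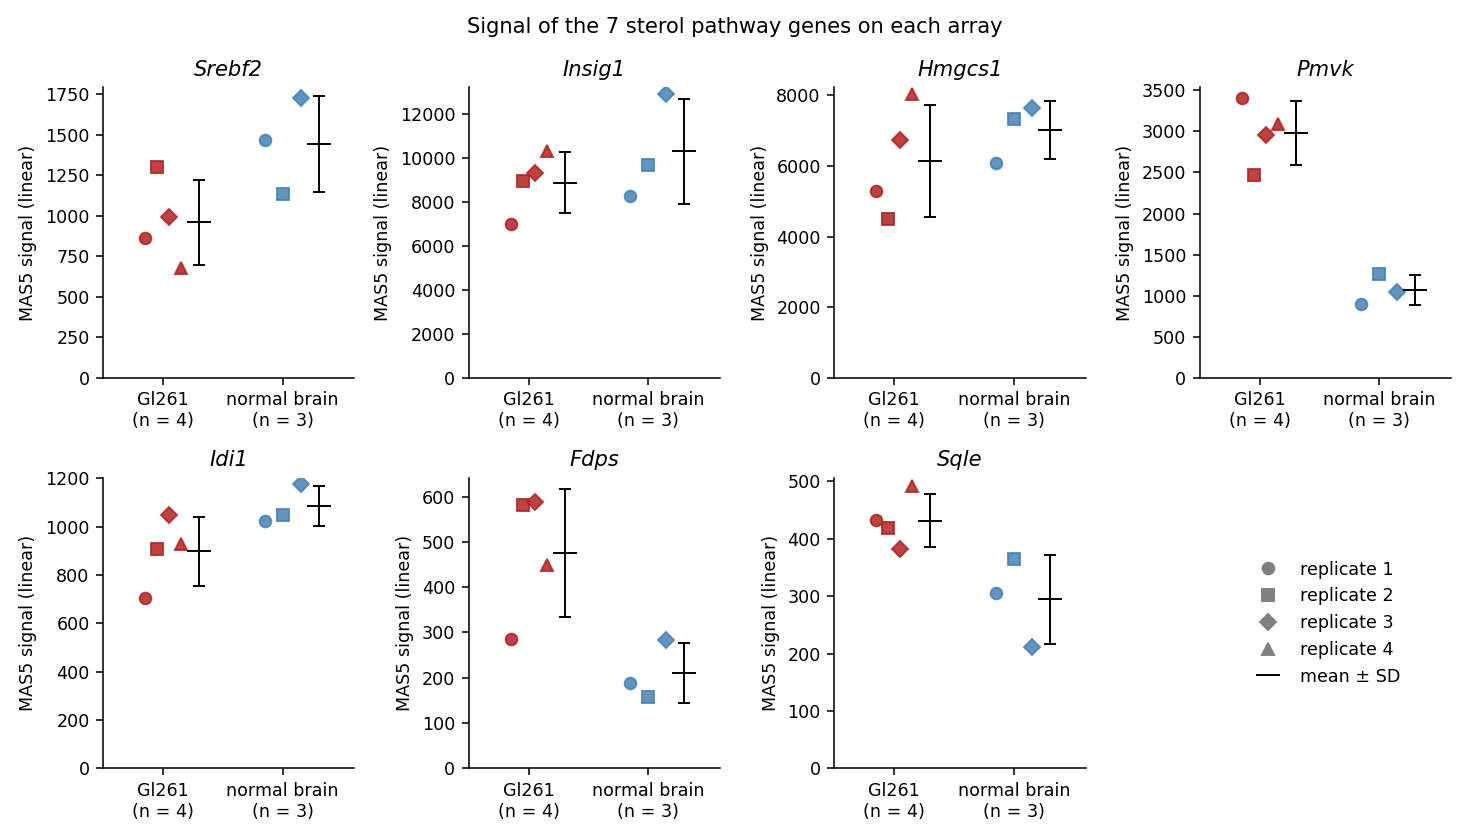
MAS5 signal (linear, vertical axis) of each gene's brightest probe set on the 4 Gl261 arrays, left, and the 3 normal brain arrays, right. Points are arrays, with a shape for each replicate number, and bars are mean ± SD. The Pmvk groups are far apart at 2467 to 3412 and 897 to 1259, those of Fdps and Sqle lie close without overlap, and those of the other 4 genes overlap.

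The log2 fold change of Pmvk was above that of Srebf2 by 2.09, of Idi1 by 1.76, of Hmgcs1 by 1.70, of Insig1 by 1.68, of Sqle by 0.91 and of Fdps by 0.33. Pmvk was picked for this comparison because its change was the largest of the 7, so these differences are a description and no test is given. Pmvk and Fdps both lie on chromosome 3 in the mouse, with 27 protein-coding genes starting between them in RefSeq.

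Fdps had values of 286, 581, 588 and 448 in Gl261 replicates 1 to 4, against 188, 158 and 284 in normal brain replicates 1 to 3. The groups did not overlap, but Gl261 replicate 1 at 286 was close to normal brain replicate 3 at 284. The difference was 2.21-fold, with a log2 fold change of 1.15 (SE 0.39, 95% interval 0.29 to 2.00), and missed the threshold (limma adjusted p = 0.0851). It was not called under any of 20 alternative settings, where the log2 fold change ran from 0.97 to 1.38 and the adjusted p from 0.0619 to 0.266. A dimmer Fdps probe set, 1438150_at, was below background on all 7 arrays and was not tested. Background here is the 95th percentile of 27 Bacillus control probe sets, 12.4 to 20.1 in signal.

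Sqle, the squalene epoxidase gene, had 433, 419, 383 and 492 in Gl261 replicates 1 to 4, against 306, 365 and 212 in normal brain replicates 1 to 3. The groups did not overlap here either, with 383 the lowest Gl261 and 365 the highest normal brain value. The log2 fold change of 0.57 was not called (SE 0.33, 95% interval -0.15 to 1.29, limma adjusted p = 0.300). Without overlap and with Gl261 higher stood 3 of the 7 genes (Pmvk, Fdps and Sqle), against 13.1% of all tested genes in that direction and 23.4% in either. With Gl261 lower stood 0 of 7, against 10.4%.

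The regulators Srebf2 and Insig1 had lower means in Gl261 and neither was called. Srebf2 read 861, 1303, 994 and 679 in Gl261 replicates 1 to 4, against 1468, 1137 and 1729 in normal brain replicates 1 to 3, by its brighter probe set, 1452174_at. The groups overlapped through Gl261 replicate 2 and normal brain replicate 2. The log2 fold change was -0.61 (SE 0.25, 95% interval -1.14 to -0.070, limma adjusted p = 0.141). Its other probe set, 1426744_at, read 944, 1079, 1113 and 878 in Gl261, against 1208, 1271 and 817 in normal brain. That probe set gave -0.11 (adjusted p = 0.816 over 27022 probe sets), so the size of the Srebf2 difference depends on the probe set.

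Insig1 was bright on every array, at 6974, 8915, 9278 and 10298 in Gl261 replicates 1 to 4, against 8260, 9673 and 12897 in normal brain replicates 1 to 3. The groups overlapped over most of their range. The log2 fold change was -0.20 (SE 0.18, 95% interval -0.60 to 0.20, limma adjusted p = 0.526), an interval that leaves out a 2-fold change in either direction.

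Hmgcs1, the enzyme gene at the entry of the pathway, was read by 5 probe sets whose fold changes differed in sign. The brightest, 1433443_a_at, had 5278, 4501, 6728 and 8053 in Gl261 replicates 1 to 4, against 6093, 7322 and 7646 in normal brain replicates 1 to 3. Gl261 held both the highest and the lowest of these values, and the log2 fold change was -0.22 (SE 0.20, 95% interval -0.65 to 0.20, limma adjusted p = 0.510). Of the other readings, 1433444_at had 2793, 2841, 2814 and 3530 in Gl261, against 2485, 2305 and 2641 in normal brain, with no overlap and Gl261 higher. Fitted over all 27022 probe sets, it had a log2 fold change of 0.27, with 0.34 for 1433445_x_at and 0.42 for 1433446_at (limma adjusted p = 0.346, 0.252 and 0.249). The dimmest, 1441536_at, ran from 92.4 to 270 in Gl261 and from 91.6 to 487 in normal brain, and its interval of -1.72 to 0.85 was the widest of the 13 tested probe sets. With the mean of all 5, Hmgcs1 stood at 0.074 in place of -0.22, and it was not called in either.

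Idi1 likewise had 2 probe sets of opposite sign. By 1423804_a_at it had 704, 907, 1048 and 930 in Gl261 replicates 1 to 4, against 1024, 1049 and 1178 in normal brain replicates 1 to 3, a log2 fold change of -0.28 (SE 0.21, 95% interval -0.73 to 0.17, limma adjusted p = 0.422). By 1451122_at it had 620, 1136, 1454 and 979 in Gl261, against 761, 1153 and 710 in normal brain, a value of 0.23 (adjusted p = 0.703). The groups overlapped in both readings, and the sign of Idi1 therefore rests on the probe set taken.

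**Figure D2:**
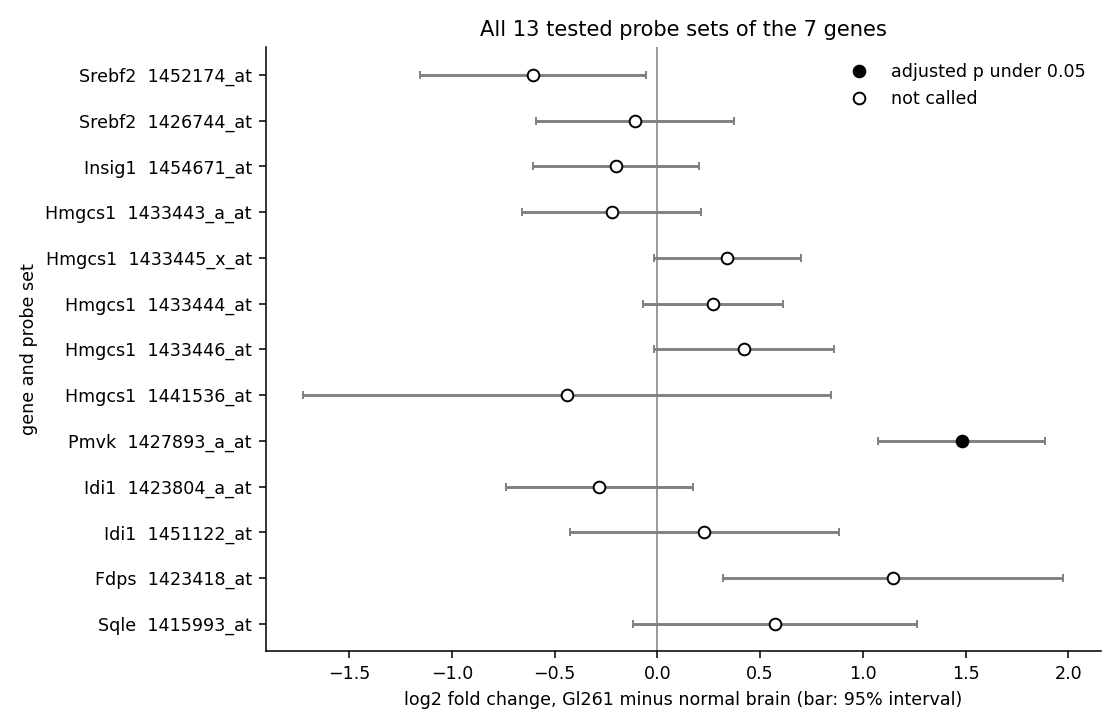
Log2 fold change, Gl261 minus normal brain, of the 13 tested probe sets of the 7 genes, from the fit over all probe sets, with 95% intervals as bars. Pmvk is the filled point at 1.48. The 5 Hmgcs1 probe sets run from -0.44 to 0.42, and the 2 Idi1 probe sets lie on either side of 0.

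Over all probe sets, 1 of these 13 was called, that of Pmvk (limma adjusted p = 0.00187), against 5.45% of all 27022, 2.98% of them higher. The spread between probe sets of a gene was examined as the per-array difference from the brightest, chosen after the values were seen. For Hmgcs1, 1433443_a_at exceeded 1433445_x_at by 0.68 ± 0.22 log2 in Gl261 (SD, n = 4) and 1.25 ± 0.20 in normal brain (SD, n = 3; exact permutation over 35 splits, two-sided, p = 0.0286, the smallest p these arrays allow). After adjustment over 6 such pairs this was 0.114, and the other 5 pairs had adjusted p of 0.114 to 0.800. The Gapdh ratio of 3′ over 5′ control probe sets, a measure of RNA integrity and labelling length, also differed between the groups, at 1.75 ± 0.127 in Gl261 (SD, n = 4) and 2.41 ± 0.0243 in normal brain (SD, n = 3; exact permutation p = 0.0286). The same ratio for actin was 1.42 ± 0.0715 in Gl261 (SD, n = 4) and 1.57 ± 0.116 in normal brain (SD, n = 3; exact permutation p = 0.143). The part of RNA quality in the differences between probe sets was not tested.

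The 7 genes together had a median log2 fold change of -0.20 by their brightest probe sets, beside 0.038 over all 12125 tested genes. Of the 7, 3 were positive and 4 negative. The median and these signs depend on the probe sets taken. With the mean of all probe sets of a gene, Hmgcs1 turned positive (0.074) and Idi1 was -0.027. The median over all tested genes was 0.066 in that fit. By the brightest probe sets, 2 genes stood higher (Pmvk and Fdps) and 1 lower (Srebf2) at an unadjusted p under 0.05. Of all tested genes, 15.2% and 10.9% stood so. Hmgcs1, Idi1 and Insig1 had 95% intervals within 1 log2 unit of 0, as did 41.0% of all tested genes. The intervals of Fdps, Sqle and Srebf2 reached past 1 log2 unit, so a change of that size was not left out for them.

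**Figure D3:**
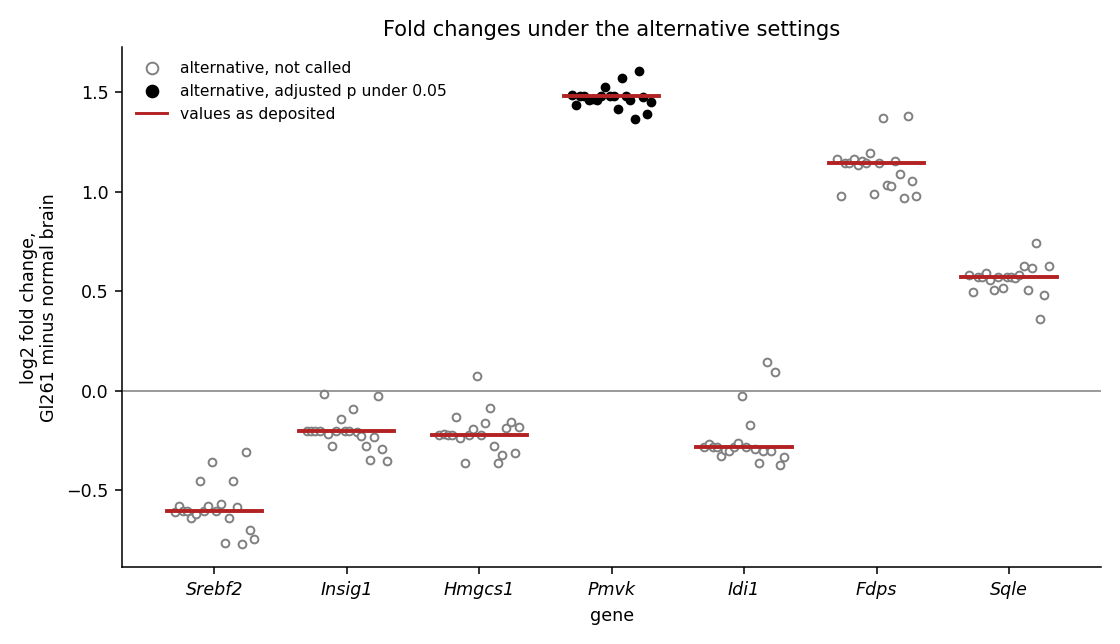
Log2 fold change, Gl261 minus normal brain (vertical axis), of the 7 genes under 20 alternative settings each (points) and as deposited (red lines). Filled points were called. Pmvk was called in all 20, at 1.36 to 1.61, and the other 6 genes in none. Hmgcs1 crosses 0 with the mean of its probe sets, and Idi1 where another of its probe sets became the brightest.

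The arrays were also compared as a whole. The median signal was 49.5 to 73.0 over the 7 arrays. Of 8 macrophage markers, all were above background on all 7 arrays and 0 were called (2 lower and 0 higher at an unadjusted p under 0.05), with summed signals of 53379 to 72129 in Gl261 and 62835 to 78113 in normal brain. Markers of other cells also differed between the groups. Of all tested genes, 5.92% were called higher and 4.20% lower, and 15.2% and 10.9% stood so at an unadjusted p under 0.05. Oligodendrocyte precursor and glioma cell markers were called higher in 4 of 6, with sums of 987 to 2589 in Gl261 and 200 to 392 in normal brain, where Cspg4, Olig2 and Gpr17 were at background on all 3 arrays. Higher as well were 4 of 7 T and NK cell markers (7628 to 14684 in Gl261, 5011 to 6109 in normal brain) and 5 of 9 cell cycle genes (7538 to 14567 in Gl261, 3818 to 4446 in normal brain). Lower were 6 of 6 B and plasma cell markers (1981 to 3137 in Gl261, 7768 to 10412 in normal brain), 6 of 7 neutrophil markers (16541 to 22952 in Gl261, 39749 to 51090 in normal brain), 3 of 6 endothelial markers (453 to 1819 in Gl261, 2493 to 3465 in normal brain) and 2 of 3 erythroid markers (93.7 to 4506 in Gl261, 9436 to 16102 in normal brain). Of the 6 endothelial markers 2 had positive fold changes and 4 negative, with 1 higher and 4 lower at an unadjusted p under 0.05. S100a8 and S100a9 made most neutrophil marker signal, at 6989 and 9176 in Gl261 replicate 1 and 14621 and 19627 in normal brain replicate 1. The top Gl261 erythroid sum was that of replicate 2, with Hbb-b2 at 4187, against 65.5 to 180 in the other Gl261 arrays. Pax5 was at background on all normal brain arrays, Elane on all Gl261 arrays, Hba-a1 on all 7 and Epb42 on all normal brain arrays. Of 5 oligodendrocyte markers 1 was lower (sums 4659 to 7874 in Gl261, 7005 to 12438 in normal brain), of 5 neuronal markers 1 was higher (152 to 1053 in Gl261, 316 to 442 in normal brain), and of 8 astrocyte markers 0 were called (1 higher at an unadjusted p under 0.05; 1771 to 3621 in Gl261, 1385 to 3868 in normal brain). The part of these cells in the Pmvk difference was not tested.

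Of all tested genes, 10.1% were called, and 15.2% stood higher and 10.9% lower at an unadjusted p under 0.05. Among 13 other tested enzymes of sterol synthesis, 0 were called, with 0 higher and 1 lower at an unadjusted p under 0.05. Their median log2 fold change was 0.21, from -0.50 to 0.74, beside a median of 0.038 over all tested genes. Of the 13, 10 were positive, but just 1 of the 13 intervals left out 0, and that gene was lower in Gl261. Intervals within 1 log2 unit of 0 were found for 8 of them. Lbr, a nuclear membrane protein with sterol reductase activity, had the smallest p. It read 3265, 4082, 3117 and 3659 in Gl261, against 4214, 4661 and 6249 in normal brain, without overlap and with a log2 fold change of -0.50 (SE 0.17, limma adjusted p = 0.0821). The kinase Mvk and the decarboxylase Mvd stand directly before and after Pmvk in the pathway and were picked for that after the values were seen. Mvk had 236, 164, 255 and 144 in Gl261, against 155, 132 and 105 in normal brain, and Mvd had 370, 408, 644 and 569 in Gl261, against 497, 211 and 227 in normal brain. Both overlapped between the groups, at 0.57 for Mvk (95% interval -0.38 to 1.52, limma adjusted p = 0.445) and 0.74 for Mvd (-0.10 to 1.59, 0.251).

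Of 8 other regulators of SREBP, 0 were called, against 10.1% of all tested genes (median 0.14, range -0.44 to 0.78). At an unadjusted p under 0.05 stood 0 of them, against 15.2% of all tested genes higher and 10.9% lower. Srebf1, which encodes the SREBP-1 factor best known for fatty acid synthesis, had the smallest p. It read 1020, 757, 992 and 1196 in Gl261, against 1018, 606 and 297 in normal brain, an overlap that came from normal brain replicate 1. Its log2 fold change was 0.78 (SE 0.36, 95% interval -0.0056 to 1.56, limma adjusted p = 0.194), and it was called without normal brain replicate 1 (1.19, adjusted p = 0.0471), with 0.31 without normal brain replicate 3.

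The uptake and transport list holds genes for lipoprotein uptake and for moving sterols out of lysosomes. It had 7 tested genes and 0 calls, where 10.1% of all tested genes were called. At an unadjusted p under 0.05 stood 2 higher and 0 lower, against 15.2% and 10.9% of all tested genes. The fold changes of the 7 were between -0.077 and 0.38 with a median of 0.096, and 6 of 7 had intervals within 1 log2 unit of 0. Lrp1, a large endocytic receptor, read 5194, 4395, 3909 and 4797 in Gl261, against 3922, 3515 and 3215 in normal brain, with a log2 fold change of 0.36 (SE 0.15, limma adjusted p = 0.147). The groups overlapped slightly, at Gl261 replicate 3 and normal brain replicate 1. Vldlr did not pass the filter and was at background on all normal brain arrays.

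The isoprenoid branch uses the products of Fdps for prenyl groups, dolichol and ubiquinone. Of 9 tested genes 0 were called, against 10.1% of all tested genes (median -0.055, range -0.66 to 0.53). At an unadjusted p under 0.05 stood 0 higher and 2 lower, against 15.2% and 10.9% of all tested genes. Pggt1b, the catalytic subunit of a geranylgeranyl transferase, read 1234, 1217, 988 and 1048 in Gl261, against 1393, 2145 and 1850 in normal brain. Its groups did not overlap, and its log2 fold change of -0.66 was just short of the threshold (SE 0.20, limma adjusted p = 0.0525). It was called in 6 of 20 alternatives, at -0.87 to -0.64 and adjusted p of 0.0298 to 0.0484, while over all 20 the adjusted p ran up to 0.221. These were a pseudocount at the median signal, the 60th percentile filter, quantile normalization, centring over the tested genes, and the fits without normal brain replicate 1, alone or together with Gl261 replicate 2.

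Fatty acid synthesis shares SREBP control with the sterol genes. Of 10 tested genes 1 fell and 0 rose (median 0.21), against 4.20% and 5.92% of all tested genes. At an unadjusted p under 0.05 stood 2 higher and 1 lower, against 15.2% and 10.9% of all tested genes. Scd1, a stearoyl-CoA desaturase, read 544, 1359, 753 and 899 in Gl261, against 1829, 2284 and 3596 in normal brain. All Gl261 arrays were below all normal brain arrays, and Scd1 fell by 1.55 on the log2 scale (SE 0.31, limma adjusted p = 0.0101). It lost its call with variances that do not follow the signal (adjusted p = 0.0636). The other 9 ranged from -0.53 to 0.99 and were not called.

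Among 6 tested genes of sterol storage, oxysterols and efflux 2 rose and 1 fell (median 0.47), against 5.92% and 4.20% of all tested genes. Nr1h3, the gene of the sterol-sensing receptor LXR alpha, read 756, 402, 711 and 944 in Gl261, against 151, 122 and 339 in normal brain. The groups did not overlap, and Nr1h3 rose 3.56-fold (log2 1.83, SE 0.42, limma adjusted p = 0.0201). Ch25h, which makes 25-hydroxycholesterol, read 1502, 1491, 1135 and 1005 in Gl261, against 937, 431 and 606 in normal brain, and rose 2.01-fold (log2 1.01, SE 0.28, limma adjusted p = 0.0402). Cyp27a1, which makes 27-hydroxycholesterol, read 2441, 1851, 1632 and 1525 in Gl261, against 3306, 3116 and 2557 in normal brain, and fell by 0.70 on the log2 scale (SE 0.19, limma adjusted p = 0.0372). Neither gene's groups overlapped.

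These 3 calls held in fewer of the 7 fits that each left out an array than the call of Pmvk, which held in all 7. Nr1h3 was called in 3 of them, losing its call without Gl261 replicates 1, 3 or 4 or normal brain replicate 2 (adjusted p = 0.0606, 0.0675, 0.0661 and 0.0513). Ch25h was called in 1, without normal brain replicate 1, and lost its call without any of the other 6 arrays (adjusted p = 0.0548 to 0.107). Cyp27a1 was called in 2, without Gl261 replicate 1 or normal brain replicate 3, and lost its call without any of the other 5 (adjusted p = 0.0651 to 0.104). All 3 also lost their calls with variances that do not follow the signal (adjusted p = 0.0606, 0.104 and 0.119). Of all 20 alternatives, Nr1h3 was called in 15, Ch25h in 9 and Cyp27a1 in 8. Ch25h also lost its call with no filter, array quality weights, the mean of probe sets or a fit over all probe sets (adjusted p = 0.0664, 0.0639, 0.0507 and 0.0610). Cyp27a1 also lost its call with no filter, median centring, the mean of probe sets or a fit over all probe sets, and without Gl261 replicate 2 and normal brain replicate 1 together (adjusted p = 0.0662, 0.0672, 0.0991, 0.0620 and 0.147).

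**Figure D4:**
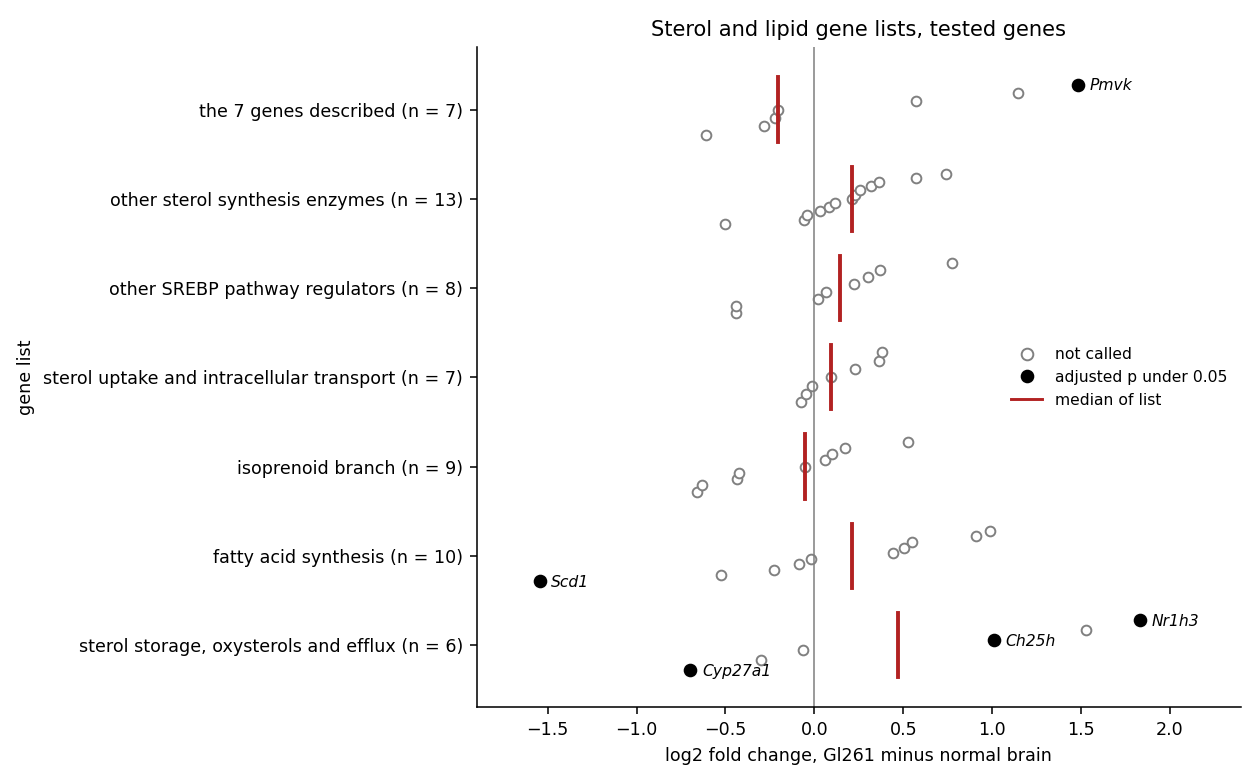
Log2 fold change, Gl261 minus normal brain (horizontal axis), of the tested genes in each sterol and lipid list. Each point is a gene, filled where called, and red lines are list medians. The medians of the sterol synthesis, SREBP, uptake and isoprenoid lists lie between -0.055 and 0.21, and those lists hold no filled point, while Pmvk, Scd1, Nr1h3, Ch25h and Cyp27a1 are filled elsewhere.

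The 5 enzyme genes were also summarised as the mean of their standardised log2 levels. It was -0.28, 0.011, 0.57 and 0.69 in Gl261 replicates 1 to 4, against -0.57, -0.19 and -0.23 in normal brain replicates 1 to 3, so Gl261 replicate 1 lay among the normal brain arrays. The other tested genes were ranked by likeness to this mean over the 7 arrays, leaving out clone and predicted names. The top 5 were Ppp1r16b (Pearson r = 0.996), Ubxn1 (0.988), Iqgap1 (0.986), Cdkn1a (0.978) and Pcbp1 (0.977). They were taken as the highest of the genes ranked, the arrays are of 2 groups, and none of the 5 was called.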

How the data were processed

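Values were linear MAS5 signal intensities, 1 per probe set and array, which the authors made with MAS5 per the submitters' processing notes and deposited. The sources used here give no MAS5 version, detection calls or genome build. Arrays were already scaled and were not scaled further. All 7 columns matched a sample. Per gene, the probe set with the highest mean log2(signal + 6) was used, 6 being the 20th percentile of all values, and genes whose mean exceeded the 40th percentile of non-control probe sets (4.93) were tested. All 7 members passed. The groups were compared with limma 3.58.1 in R 4.3.3, with the variance prior following the signal and Benjamini-Hochberg adjustment over 12125 genes. Figures used Python 3.11.15 and matplotlib 3.10.9. The procedure was tested on simulated data.

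The text names the members and, from each pathway list, up to 3 called genes in each direction or the gene with the smallest p. It also names the 5 genes most like the enzymes, apart from clone and predicted names. Outside this rule, Mvk, Mvd, Vldlr, Adgre1, Ptprc, S100a8, S100a9, Hbb-b2 and the marker genes at background were named after their values were seen. Members, lists and most alternatives were chosen with earlier results of these data known, and comparisons with Pmvk and between probe sets after the values were seen. Alternatives were pseudocounts of 1 and 58, no filter or the 60th percentile, quantile normalization, 2 median centrings (the one over tested genes added after the data were seen), a replicate block, a variance prior that ignores the signal, array weights, the mean of or every probe set, and leaving out arrays. The number of arrays limits the precision.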

Additional observations from a re-analysis of the deposited data

Results flagged for a closer look

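Of 25 sets of 4 Gl261 values examined, 1 had an array far from the others, and chance marks about 1 set in 20. On the Hmgcs1 probe set 1433444_at, Gl261 replicate 4 stood at log2 11.79 and the other Gl261 arrays at 11.45 to 11.48, a gap of 0.928 of the whole range. The normal brain group, with 3 arrays, was too small to examine in this way.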

How the results depend on the processing

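Pmvk was called under all 20 alternatives (log2 fold change 1.36 to 1.61, adjusted p 0.000283 to 0.0170), and the other 6 genes under none of them. Since Pmvk has 1 probe set, the mean of probe sets left its log2 fold change at 1.48 and could not test it. The members called numbered 1 higher and 0 lower in every fit, and the called member probe sets 1. Hmgcs1 turned to 0.074 with the mean of its probe sets. Idi1 ran from -0.36 to 0.15 without 1 array. It turned to 0.15 without replicate 1 of normal brain and to 0.096 without its replicate 3, since 1451122_at was then the brightest probe set. Over all genes, 1227 were called as deposited, 809 with each array centred on its median, 455 with variances that do not follow the signal, and 534 to 1179 without 1 array (534 without Gl261 replicate 3, 715 without replicate 1, 723 without replicate 4). Called genes were higher in 58.5% as deposited and 47.1% when arrays were centred over the tested genes. With the replicate number as a block 1004 genes were called, and no call of the 7 members changed, while Cyp27a1 lost its call (-0.61, adjusted p = 0.0611). The labels do not say that the numbers pair samples. Same-numbered arrays had correlated deviations of 0.079, -0.0075 and 0.031, and not every array correlated best with its own number. The Gl261 minus normal brain difference in the Gapdh ratio was -0.659 as deposited, -0.706 to -0.623 without 1 array, and -0.609 without Gl261 replicate 2 and normal brain replicate 1 together (exact permutation p = 0.100). With fewer arrays that test cannot pass the threshold. Genes at background, such as the dimmer Fdps probe set, could not be compared.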
